A study of Mus musculus with 59 samples.

Results

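A set of 9 marker genes of macrophages and neutrophils is described here in the muscles of mice that carried melanomas. The 10 genes listed were Adgre1, Cd68, Csf1r, Cd163, Mrc1, Lyz2, Itgam, S100a8, S100a9 and Irf5, and members were the rows of the deposited table with these symbols. There were 9 such rows among 47643 gene symbols, and Itgam was not analysed here. The study asked whether recombinant Fibcd1 (rFibcd1), a factor secreted by muscle, limits the wasting of muscle caused by cancer.

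All mice were females of the NCI Ath/nude strain, 4 months of age. Athymic nude mice do not mature T cells but keep macrophages, neutrophils, B cells and natural killer cells, so the tissue could still hold the cells that the members mark. Each mouse bore a patient-derived human melanoma, either one that causes wasting (cachectic) or one that does not (non-cachectic). Each kind was a single xenograft, so the comparison is between 2 tumors, and samples without a tumor are not analysed here. RNA was sequenced from 59 muscle samples in 8 groups. In the diaphragm, the breathing muscle that borders the peritoneal cavity, there were 10 cachectic and 9 non-cachectic samples from mice given mock injections into that cavity, and 10 cachectic and 10 non-cachectic samples from mice given rFibcd1 there. The tibialis anterior and the soleus, hindlimb muscles of mostly fast and mostly slow fibers, gave 5 cachectic and 5 non-cachectic samples each, with no label of an injection.

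Macrophages live in muscle between the fibers and arrive in larger numbers as blood monocytes after damage, whereas neutrophils circulate in blood and enter tissue early in inflammation. Csf1r is the receptor for the growth factors Csf1 and Il34 that keep macrophages alive, and Adgre1 encodes the surface protein F4/80 by which mouse macrophages are usually stained. Cd68 is a glycoprotein of lysosomes, the digestive compartments that are abundant in phagocytes. Cd163 takes up hemoglobin bound to haptoglobin, and Mrc1 is the mannose receptor. Both are typical of macrophages that reside in tissue. Lyz2 is a lysozyme made by macrophages and neutrophils. S100a8 and S100a9 form calprotectin, a major protein of the neutrophil cytosol, and are also made by young monocytes. Irf5 is a transcription factor that acts after toll-like receptors in macrophages, dendritic cells and B cells.

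Promoters of 7 of the 9 members were at hand from RefSeq (build GRCm38.p6). The 4 shown are those of the neutrophil pair, which moved together, and of Cd68 and Irf5, which each parted from the other macrophage genes in a single hindlimb muscle. Each is the 250 bases before the start that RefSeq gives, 5′ to 3′, and capitals mark matches on either strand to 3 motifs, which do not overlap in these windows: GAGGAA, the core of PU.1 sites (PU.1, the product of Spi1, is a master factor of myeloid cells); TTGCNNAA, a form of C/EBP sites; and CAGCTG, an E-box bound by MyoD in muscle.
S100a8 promoter, chr3:90668821-90669070, plus strand: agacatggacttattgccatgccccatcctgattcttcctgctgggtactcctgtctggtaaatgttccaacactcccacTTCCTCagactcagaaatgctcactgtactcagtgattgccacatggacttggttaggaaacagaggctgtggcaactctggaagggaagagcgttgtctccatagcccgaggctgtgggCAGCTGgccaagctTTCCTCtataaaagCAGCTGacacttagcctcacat
S100a9 promoter, chr3:90695722-90695971, minus strand: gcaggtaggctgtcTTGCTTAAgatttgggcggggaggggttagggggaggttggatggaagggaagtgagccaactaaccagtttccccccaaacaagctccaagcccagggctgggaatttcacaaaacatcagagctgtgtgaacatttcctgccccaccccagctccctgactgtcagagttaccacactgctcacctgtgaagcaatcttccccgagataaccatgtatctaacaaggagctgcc
Cd68 promoter, chr11:69666171-69666420, minus strand: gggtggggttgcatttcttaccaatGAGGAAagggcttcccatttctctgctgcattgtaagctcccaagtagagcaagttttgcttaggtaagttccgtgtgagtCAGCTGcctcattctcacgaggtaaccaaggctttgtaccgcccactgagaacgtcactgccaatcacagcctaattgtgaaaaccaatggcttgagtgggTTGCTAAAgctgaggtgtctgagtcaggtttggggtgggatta
Irf5 promoter, chr6:29526375-29526624, plus strand: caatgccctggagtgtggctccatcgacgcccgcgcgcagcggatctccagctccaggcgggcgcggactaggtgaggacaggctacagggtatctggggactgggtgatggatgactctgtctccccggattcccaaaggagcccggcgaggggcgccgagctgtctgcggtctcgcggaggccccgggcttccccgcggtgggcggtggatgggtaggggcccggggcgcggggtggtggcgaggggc

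The S100a8 window held 2 matches to the PU.1 core and 2 to the E-box, the S100a9 window held 1 match to the C/EBP motif, and the Cd68 window held 1 of each. The Irf5 window matched none of the 3. Across 32851 promoter windows of this length, 23.3% matched the PU.1 core, 13.001% the E-box and 9.56% the C/EBP motif, so such matches are common and a match is no more than a description of the letters. In the GENCODE M21 annotation of GRCm38, which named 94.7% of the symbols of the table, Irf5 spans chr6:29526625-29541871 on the plus strand and its 3′ end overlaps 1045 bases of Tnpo3 on the opposite strand. Csf1r overlaps 873 bases of Hmgxb3, also on the opposite strand. Cd68 spans chr11:69664213-69666153 on the minus strand and begins 782 bases downstream of Eif4a1 on that strand, so that its promoter lies between these genes. S100a8 (chr3:90668978-90670035, plus strand) and S100a9 (chr3:90692632-90695721, minus strand) are close neighbors. Lyz2 (chr10:117277331-117282321) lies beside its near copy Lyz1, so the split of reads between these 2 genes is uncertain.

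Values were deposited as TPM (transcript counts scaled to the same total in every library), a level already corrected for gene length, so the sequencing depth is unknown. Between 16436 and 19456 symbols were above 0 per library. Ckm, the muscle creatine kinase gene, ranged from 3522 to 15046 TPM over the 59 libraries, and the slow myosin gene Myh7 was at 4288 to 7886 TPM in soleus and at most at 4.83 TPM in tibialis anterior. Libraries separated into a set of 36 with 5.60 to 22.8 TPM of the pseudogene Pcna-ps2 and a set of 23 with at most 0.428 TPM. The first set, called high-Pcna-ps2 here, held all 10 cachectic and none of the 10 non-cachectic hindlimb samples, so that tumor and library set cannot be told apart in the tibialis anterior and the soleus. Of the diaphragms it held 9 of 10 cachectic and 3 of 9 non-cachectic mock samples, and 8 of 10 cachectic and 6 of 10 non-cachectic rFibcd1 samples. Fold changes below are on the log2(TPM + 1) scale, which understates changes of genes with low TPM, and a gene was called at an adjusted p under 0.05 in limma. The p-values measure the spread between the samples of a group.

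Without cachexia or rFibcd1, Adgre1, Csf1r, Cd163, Mrc1 and Lyz2 were higher in the diaphragm than in soleus and higher in soleus than in tibialis anterior, whereas Irf5 was highest in tibialis anterior. Csf1r was at 10.0 to 23.6 TPM (median 17.0) in the 9 mock diaphragms. It was at 5.71, 6.26, 7.10, 7.49 and 8.60 TPM in the 5 non-cachectic soleus samples, and at 1.30, 1.95, 2.04, 2.34 and 2.36 TPM in the 5 tibialis anterior samples. No sample of one muscle fell in the range of another. Mean Csf1r was 2.24-fold higher in diaphragm than soleus on the log2(TPM + 1) scale and 6.00-fold higher in diaphragm than tibialis anterior (log2 difference 1.16, SE 0.269, and 2.58, SE 0.269). Adgre1 had the same order, with a mean of 8.87 ± 3.48 TPM (SD, n = 9) in diaphragm. The soleus mean was 1.61 ± 0.485 TPM (SD, n = 5), and tibialis anterior held 0.533 ± 0.170 TPM (SD, n = 5). In bulk tissue, more cells of a type and more RNA per cell cannot be told apart.

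Against tibialis anterior, 7 members were higher and 1, Irf5, lower in the non-cachectic diaphragm, while 72.5% of all 13501 genes tested were called (64% higher and 8.52% lower). Against soleus, 5 of 9 were higher in diaphragm (Adgre1, Csf1r, Cd163, Mrc1 and Lyz2; 38.8% of all genes called, 16.8% higher), with 4 of the 9 not overlapping (11.6% of all genes). Cd68 did not differ beyond the spread there, with a log2 difference of 0.57 (95% confidence interval from -0.25 to 1.39). Tibialis anterior and soleus differed in 7 members, 6 of them lower in tibialis anterior and Irf5 higher (69.5% of all genes called, 63.9% lower and 5.63% higher). The median log2 difference over all genes was 0.44 for diaphragm against tibialis anterior and -0.47 for tibialis anterior against soleus, and -0.01 and -0.02 after median-ratio scaling. The share of all calls that was higher in the muscle named first went from 88.3% to 48.8% and from 8.10% to 52.9% with that scaling, and 3 members were then called between tibialis anterior and soleus (53.3% of all genes). By Dunn's rank test, which ranks the samples of all groups together, 0 members were called between diaphragm and soleus and 1, Irf5, between tibialis anterior and soleus (8.73% and 37% of all genes). Between diaphragm and tibialis anterior it called 7 of 9 (51% of all genes), and S100a9 was not among them (adjusted p = 0.0760). Adgre1 in tibialis anterior against soleus sat at the threshold (adjusted p = 0.0448) and was not called without any 1 of 7 of the 10 libraries (adjusted p = 0.0564 to 0.106). Cd163 between diaphragm and soleus was not called without 1 soleus library (adjusted p = 0.0503), and S100a9 was called there without any 1 of 3 diaphragm libraries (adjusted p = 0.0360 to 0.0487).

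Irf5 stood apart in tibialis anterior. The 5 non-cachectic tibialis anterior samples were at 17.4, 18.4, 18.8, 18.9 and 24.99 TPM, against 2.32 to 7.18 TPM (median 5.08) in the 9 non-cachectic mock diaphragms and 2.54 to 3.69 TPM in the 5 soleus samples. Every tibialis anterior sample was above every one of these mock diaphragm and soleus samples, whereas the 10 non-cachectic rFibcd1 diaphragms reached 24.96 TPM. By mean TPM, Irf5 ranked 8 of 9 members in the non-cachectic mock diaphragm. It ranked 2, after Lyz2, in the 5 non-cachectic tibialis anterior samples. The myeloid factor Spi1 was at 0.162 to 0.486 TPM and C1qa, a complement gene of macrophages, at 5.14 to 13.8 TPM in the same 5 samples, the lowest medians of the 8 groups for both genes.

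**Figure D1:**
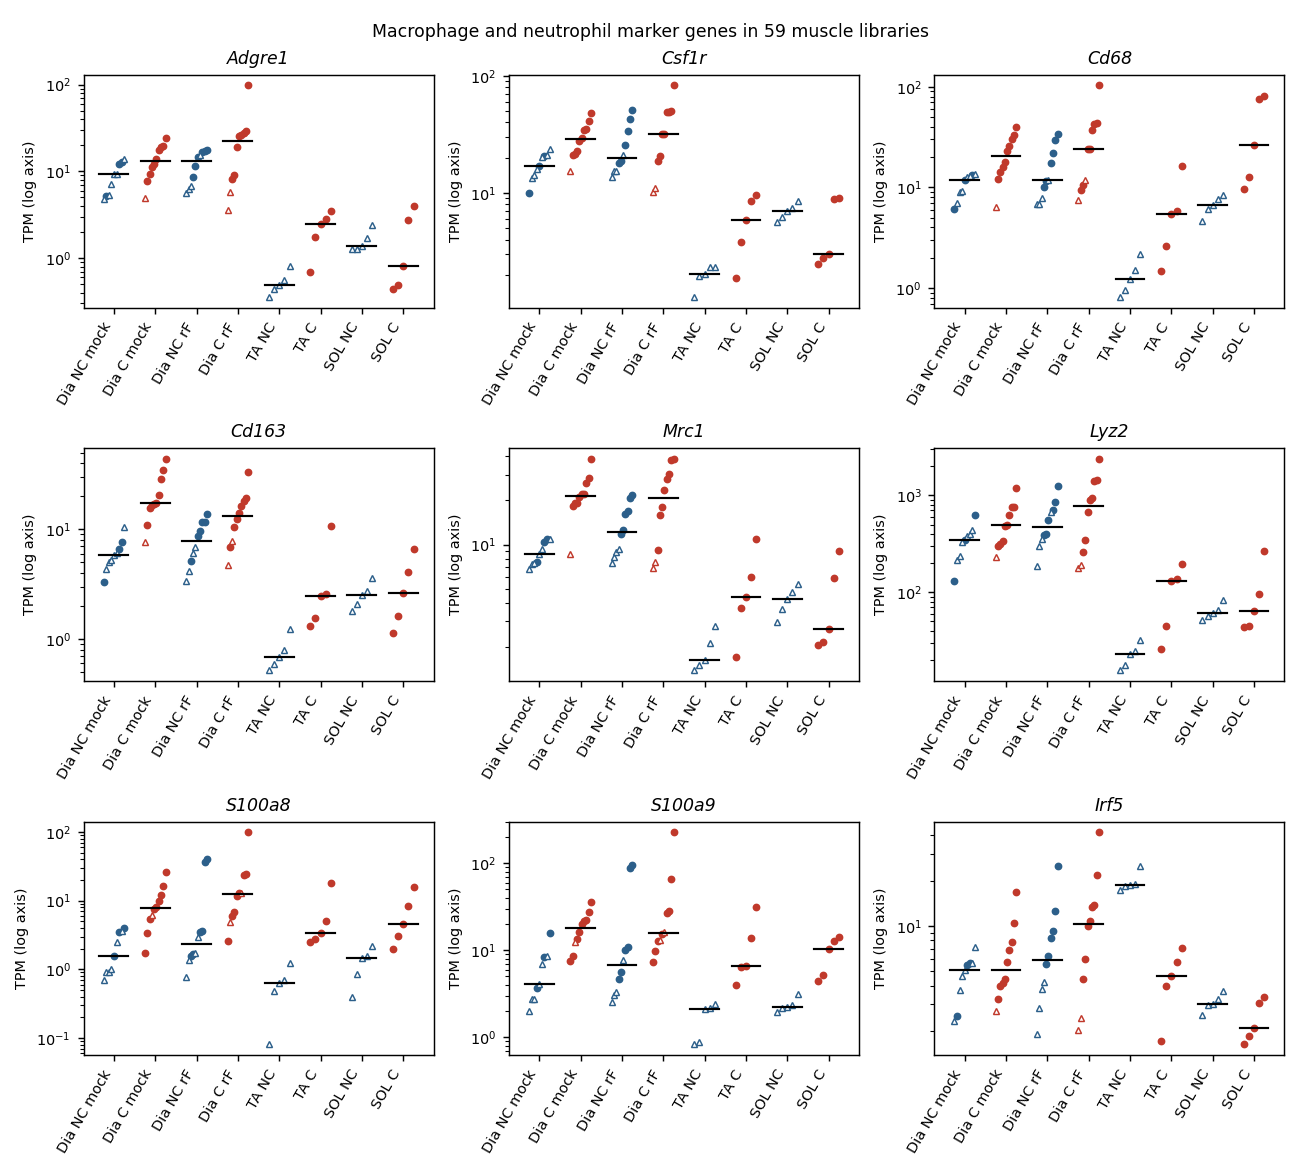
Level of each member in TPM (log axis) in the 59 libraries, with a bar at the group median; Dia, diaphragm; TA, tibialis anterior; SOL, soleus; C, cachectic (red); NC, non-cachectic (blue); rF, rFibcd1; filled circles, high-Pcna-ps2 libraries; open triangles, the others. Cd163 and Mrc1 are higher in most cachectic than non-cachectic mock diaphragms, Cd68 reaches 80.8 TPM in the cachectic soleus, and Irf5 falls from 17.4 to 24.99 TPM to 1.72 to 7.14 TPM in the cachectic tibialis anterior.

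In the mock diaphragm, the cachectic melanoma was accompanied by higher Cd163, Mrc1, S100a8 and S100a9, and not by a called change in the other 5 members. Thus 4 of 9 members were called, all higher, beside 33.5% of the 13426 genes tested (30.9% higher). The median log2 fold change was 0.87 over the members and 0.20 over all genes. Higher genes made 92.0% of all calls as deposited and 46.8% after median-ratio scaling, which brought the median of all genes to 0.01. For no member were the groups free of overlap (4.07% of all genes, higher).

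Cd163 was at 3.31 to 10.6 TPM (median 5.79) in the 9 non-cachectic and 7.70 to 44.0 TPM (median 17.2) in the 10 cachectic mock diaphragms. All but 1 cachectic sample were above the highest non-cachectic sample. The log2 fold change was 1.56 (SE 0.283, limma adjusted p = 0.000158). Mrc1 was at 6.85 to 10.9 TPM (median 8.64) in the non-cachectic and 8.69 to 38.6 TPM (median 21.5) in the cachectic samples. Again 1 cachectic sample alone lay among the non-cachectic ones, and the other 9 began at 18.4 TPM. The log2 fold change was 1.19 (SE 0.263, adjusted p = 0.000948). The exception was the same library for both genes, and it was the only cachectic mock library outside the high-Pcna-ps2 set.

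The calls of both scavenger receptors held when the library set was handled. With the library set as a term, the log2 fold change was 1.15 for Cd163 and 0.69 for Mrc1 (adjusted p = 0.00443 and 0.0293). Among high-Pcna-ps2 libraries alone (9 cachectic, 3 non-cachectic) it was 1.74 and 1.21 (adjusted p = 0.0146 and 0.0294). Outside that set the single cachectic library, at 7.70 TPM of Cd163 and 8.69 TPM of Mrc1, lay within the range of the 6 non-cachectic libraries, which was 4.33 to 10.6 TPM and 6.85 to 10.9 TPM. Both calls also remained after median-ratio scaling, with log2 fold changes of 1.35 and 0.98.

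The neutrophil pair was less firm. S100a8 was at 0.689 to 4.06 TPM (median 1.58) in the non-cachectic and 1.74 to 25.9 TPM (median 7.78) in the cachectic mock diaphragms, and S100a9 at 1.99 to 15.9 TPM (median 4.08) and 7.55 to 35.9 TPM (median 18.1). The ranges overlapped for both genes. The log2 fold changes were 1.63 (SE 0.538, adjusted p = 0.019) and 1.53 (SE 0.553, adjusted p = 0.0305). With the library set as a term they were 1.09 and 0.88 and neither was called (adjusted p = 0.200 and 0.322). S100a9 was also not called after median-ratio scaling (adjusted p = 0.0804) or in a table without a filter on low values (adjusted p = 0.0526). Leaving out any 1 of 5 libraries, which were 2 cachectic and 3 non-cachectic ones, had the same effect on S100a9 (adjusted p = 0.0512 to 0.0588).

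The pan-macrophage genes did not pass the test in the mock diaphragm. Csf1r was at 10.0 to 23.6 TPM in the non-cachectic and 15.4 to 48.5 TPM (median 28.8) in the cachectic samples, and the log2 fold change was 0.71 (95% confidence interval from 0.12 to 1.30, adjusted p = 0.055). Cd68 was at 6.04 to 13.5 TPM and 6.38 to 39.4 TPM, with a log2 fold change of 0.87 (interval from 0.12 to 1.61, adjusted p = 0.064). These 2 genes sat at the threshold and were called in a fit of the compared groups alone (adjusted p = 0.00481 and 0.00991) and without the cachectic library outside the high-Pcna-ps2 set (adjusted p = 0.0288 and 0.0234). Csf1r was also called without either of 2 other libraries, 1 cachectic and 1 non-cachectic (adjusted p = 0.0489 and 0.0496), by Dunn's test (adjusted p = 0.0334) and with a minimum mean of 5 TPM (adjusted p = 0.0468). Adgre1, Lyz2 and Irf5 had log2 fold changes of 0.56, 0.62 and 0.31 with intervals that included 0, and with the library set as a term Adgre1 and Irf5 were at -0.01 and -0.30.

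**Figure D2:**
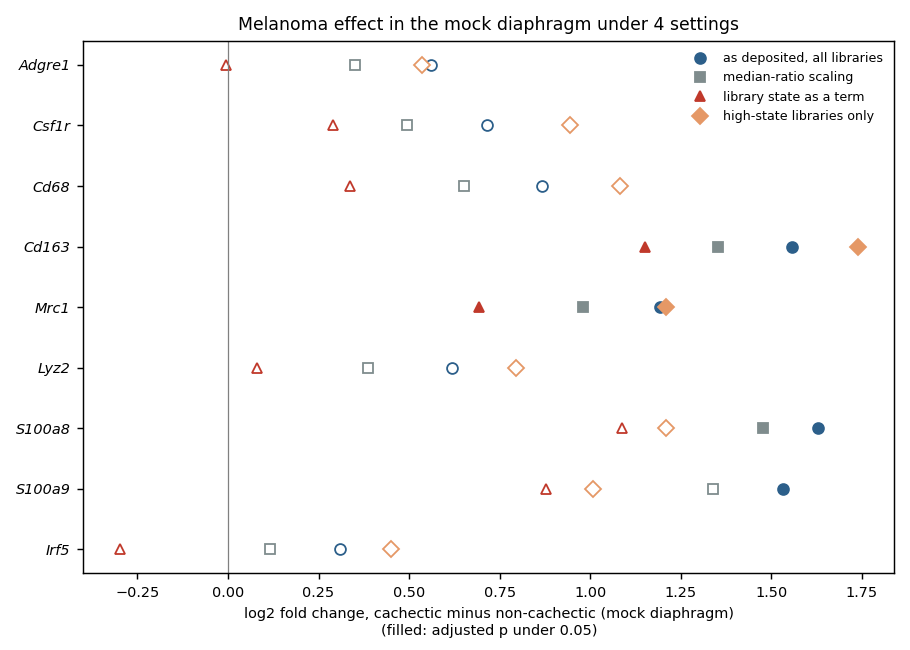
Log2 fold change of each member, cachectic minus non-cachectic, in the mock diaphragm as deposited, after median-ratio scaling, with the library set (high Pcna-ps2 or not, named state in the key) as a term, and in high-Pcna-ps2 libraries only; filled symbols have an adjusted p under 0.05. Cd163 and Mrc1 are filled at all 4 settings, S100a8 at 2 and S100a9 at 1.

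Csf1r was taken as a reference of macrophage content in the same library, a choice made after the values were seen. The ratio of Cd163 to Csf1r was 0.212 to 0.448 in the non-cachectic and 0.316 to 1.48 in the cachectic mock diaphragms, with medians of 0.365 and 0.724. On the log2 scale the ratio was higher by 0.97 (exact permutation test, two-sided, p = 0.000563; adjusted p = 0.018 over 32 ratios tested), and by 0.93 in high-Pcna-ps2 libraries alone. The ratio of Mrc1 to Csf1r was higher by 0.53 (exact permutation test, adjusted p = 0.0333) and by 0.30 in that set alone, where no test was made. For Adgre1 the ratio had medians of 0.459 and 0.431 in these groups, and its log2 difference of -0.13 did not pass the exact permutation test (adjusted p = 0.490).

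Other genes of these cells were counted from lists, to be read beside the 30.9% of all genes that were higher in this comparison. All values of listed genes in the mock diaphragm are as deposited, without the library set as a term. With that term the share of all genes called in either direction went from 33.5% to 15.3%, and the lists were not counted again. Of 12 genes of resident macrophages, 9 were higher and none lower in the cachectic mock diaphragm, led by Cd209f (log2 fold change 1.69), a lectin, and F13a1 (1.66), a transglutaminase. Of 25 other macrophage genes, 12 were higher, among them Gpnmb (1.54), a glycoprotein of lipid-laden macrophages, and C1qb (1.29). Of 9 monocyte genes tested, 3 were higher, with Chil3 at 2.48 and Plac8 at 1.51. Of 20 neutrophil genes, 7 passed the filter and 3 were higher, with Retnlg at 1.11 and Prtn3 at 0.99. Retnlg, a resistin-like factor secreted by neutrophils, was at 0.0815 to 0.768 TPM in the non-cachectic and 0.270 to 4.12 TPM in the cachectic mock diaphragms. It passed the filter only through libraries of other groups than the non-cachectic mock one, so its call is not independent of that filter.

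Among the ligands and partners of the members, Hp, which encodes the haptoglobin that Cd163 takes up with hemoglobin, was higher in the cachectic mock diaphragm with 3.56 on the log2 scale (SE 0.738, adjusted p = 0.000523). Hmox1, the heme oxygenase that degrades the heme so taken up, was higher by 0.84. In this list 3 of 4 genes tested were called, all higher. Of 13 growth factors, receptors and chemoattractants, 9 were tested and 2 were higher: the monocyte attractant Ccl8 (2.60) and the cytokine receptor chain Csf2rb (1.70). Csf1 was at 10.1 to 13.8 TPM in the non-cachectic and 9.02 to 18.4 TPM in the cachectic mock diaphragms and Il34 at 3.76 to 8.19 and 4.41 to 15.2 TPM, and neither ligand of Csf1r was called. Of the Irf5 pathway, Myd88 and Irak4 were higher among 8 genes tested (0.80 and 0.68), and of the other interferon regulatory factors Irf3 alone among 8 (0.45).

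Markers of other cell types were read beside these results. None of the tested genes of T cells, natural killer cells, B and plasma cells, mast cells, dendritic cells, red blood cells, mesothelium or liver was called in the mock diaphragm. The endothelial list had 5 of 7 genes higher, and its summed level was 238 to 329 TPM in the non-cachectic and 339 to 491 TPM in the cachectic samples, with no overlap. The adipocyte list had 1 of 6 genes higher, and its sum was 130 to 1258 and 193 to 2691 TPM. The fibro-adipogenic list had 1 of 7 genes higher (Dcn, 0.47) and the muscle fiber list 2 of 6 (Myh7, 0.40, and Ckm, 0.32). The part of these cells in the members' levels was not tested.

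Under rFibcd1 no member was called between melanomas in the diaphragm, where 9.11% of all genes were called, and at an unadjusted p under 0.05 there were 4 of 9, beside 3350 of 13426 genes. Cd163 was at 3.39 to 13.7 TPM (median 7.76) in the 10 non-cachectic and 4.70 to 33.4 TPM (median 13.3) in the 10 cachectic samples, and the ranges overlapped widely. Its log2 fold change was 0.69 (95% confidence interval from 0.13 to 1.24, adjusted p = 0.107). That of Mrc1 was 0.52 (adjusted p = 0.200) and that of S100a8 1.41 (adjusted p = 0.0804). The members' median was 0.57 beside 0.08 for all genes. S100a8 was called without any 1 of 3 libraries, which were 1 cachectic and 2 non-cachectic ones (adjusted p = 0.0220 to 0.0359), and Cd163 without 1 cachectic library (adjusted p = 0.0425).

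Whether the melanoma effect differed between mock and rFibcd1 was tested as an interaction, and no member was called (0.0223% of all genes). Cd163 had the lowest unadjusted p, with an interaction of -0.87 on the log2 scale (95% confidence interval from -1.67 to -0.07, p = 0.0334, adjusted p = 0.554), and Mrc1 was at -0.67 (interval from -1.42 to 0.07). Within cachectic mice, no member was called between rFibcd1 and mock (0.0447% of all genes), and Cd163 was at 14.4 ± 8.29 TPM (SD, n = 10) and 21.4 ± 11.2 TPM (SD, n = 10), a log2 difference of -0.56 (SE 0.275, adjusted p = 0.475). Within non-cachectic mice, no member was called either (0.417% of all genes), and the log2 differences of the 9 members were between 0.31 and 0.82. At an unadjusted p under 0.05 there were 1 member in the interaction, 1 in cachectic mice and 0 in non-cachectic mice, beside 1180, 1412 and 2332 of 13426 genes. No member was called for rFibcd1 either where the share of all genes called was far larger, which was 19.6% in non-cachectic mice in a fit of only the 2 groups compared and 5.57% in cachectic mice in high-Pcna-ps2 libraries alone. The intervals are wide, and that of S100a8 in cachectic mice ran from -0.46 to 1.66.

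Single libraries carried much of the spread under rFibcd1. In 1 cachectic library Adgre1 was at 98.6 TPM, beside 29.1 TPM in the next library of the group. The same library was the highest of all 59 in Cd68 (104 TPM), Csf1r (83.2 TPM), Lyz2 (2401 TPM) and Irf5 (42.0 TPM), but not in Cd163 (18.3 TPM). It also had the highest summed level of all 59 in the lists of T cells (62.1 TPM), natural killer cells (128 TPM) and dendritic cells (35.5 TPM). Another cachectic library held 99.1 TPM of S100a8 and 228 TPM of S100a9, and 2 non-cachectic libraries held 36.2 and 40.5 TPM of S100a8 with 94.8 and 87.4 TPM of S100a9, while the other 8 of their group were at most at 3.57 and 10.9 TPM.

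How the members varied together was read from the residuals around group means over 39 diaphragm libraries, which fall in both library sets, as a description. Adgre1, Cd68, Csf1r, Lyz2 and Irf5 moved closely, with Pearson correlations between 0.86 and 0.94. The cachectic rFibcd1 library named above as the highest in these genes is included, and no correlation of residuals without it was computed. Mrc1 joined them at 0.82 to 0.90. Cd163 followed less, at 0.52 with Adgre1 and 0.77 with Mrc1, and the genes most like it included Cttn (0.83) and Trpv4 (0.82), which were not on any list of macrophage genes used here. S100a8 and S100a9 were most like each other (0.91), then like Retnlg (0.81 and 0.80), and were at 0.30 to 0.55 with the other members. The gene most like Csf1r was Ncf1 (0.97), for Cd68 Grn (0.97), for Adgre1 Tlr13 (0.94), for Mrc1 Pirb (0.94), for Lyz2 Itgb2 (0.96) and for Irf5 Unc93b1 (0.98).

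Within diaphragm groups, 12 correlations on the log2(TPM + 1) scale were tested. S100a8 and S100a9 correlated in non-cachectic mock diaphragms (r = 0.942, rho = 0.917, n = 9; exact permutation test, adjusted p = 0.00123 and 0.00678) and in cachectic mock diaphragms (r = 0.836, rho = 0.842, n = 10; permutation test, adjusted p = 0.00677 and 0.00888). Without the 2 samples farthest from the median, r was 0.925 and 0.749. Within the 6 non-cachectic libraries outside the high-Pcna-ps2 set and the 9 cachectic libraries in it, r was 0.934 and 0.835. In non-cachectic rFibcd1 diaphragms r was 0.986 and rho 0.867 (n = 10; permutation test, adjusted p = 0.0012 and 0.00678), with r at 0.893 without 2 samples and 0.998 within the 6 high-Pcna-ps2 libraries. In cachectic rFibcd1 diaphragms r was 0.841 and rho 0.576 (n = 10; permutation test, adjusted p = 0.013 and 0.116), and r went to 0.435 without 2 samples, so that the relation rests on them.

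Cd163 and Mrc1 correlated in cachectic mock diaphragms (r = 0.907, rho = 0.927, n = 10; permutation test, adjusted p = 0.00123 and 0.0036; r = 0.828 without 2 samples and 0.895 in the 9 high-Pcna-ps2 libraries). In non-cachectic mock diaphragms r was 0.640 and rho 0.600 (n = 9; exact permutation test, adjusted p = 0.0825 and 0.116). In non-cachectic rFibcd1 diaphragms r was 0.838 and rho 0.806 (n = 10; permutation test, adjusted p = 0.00752 and 0.0146; r = 0.814 without 2 samples and 0.573 in the 6 high-Pcna-ps2 libraries). In cachectic rFibcd1 diaphragms r was 0.723 and rho 0.673 (n = 10; permutation test, adjusted p = 0.0295 and 0.0593), with r = 0.530 without 2 samples, 0.501 in the 8 high-Pcna-ps2 libraries and 0.509 after median-ratio scaling (adjusted p = 0.172). The summed level of 4 hemoglobin genes, a measure of blood in the tissue, correlated with that of S100a8 and S100a9 in non-cachectic mock diaphragms (r = 0.880, rho = 0.900, n = 9; exact permutation test, adjusted p = 0.00677 and 0.00678). There r was 0.908 without 2 samples and 0.851 in the 6 libraries outside the high-Pcna-ps2 set. In cachectic mock diaphragms r was -0.394 and rho -0.491 (n = 10; permutation test, adjusted p = 0.281 and 0.170). Under rFibcd1, r was 0.426 and rho 0.685 in non-cachectic (n = 10; permutation test, adjusted p = 0.216 and 0.0593) and r 0.046 and rho -0.115 in cachectic diaphragms (n = 10; permutation test, adjusted p = 0.933 and 0.757). Whether the groups differ in this relation was not tested. The red blood cell list had no gene called in the mock diaphragm, with sums of 2406 to 10579 and 1713 to 14474 TPM.

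In the tibialis anterior the cachectic melanoma was accompanied by higher levels of 7 members and lower Irf5. All 8 members tested were called, beside 60.2% of the 11105 genes tested (56.4% higher and 3.78% lower), so the share is to be read against a background in which most genes were called. Cd163 and S100a8 had non-cachectic medians of 0.69 and 0.63 TPM and passed the filter on low values only through the cachectic samples. Their calls are thus not independent of that filter. With no filter 9 of 9 members were called, beside 34.1% of all genes. The members' median log2 fold change was 1.25 and that of all genes 0.41. After median-ratio scaling the latter was -0.01, and the share of higher genes among all calls went from 93.7% to 45.6%. Csf1r and Mrc1 were then not called (log2 fold changes of 0.70 and 0.61, adjusted p = 0.0562 and 0.0767), and Csf1r was not called by Dunn's test (adjusted p = 0.1004). The other 6 members were called with either scaling. Since all cachectic samples of this muscle were in the high-Pcna-ps2 set and all others were not, the 2 cannot be told apart.

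S100a9 was at 0.836, 0.871, 2.12, 2.14 and 2.40 TPM in the non-cachectic and 4.01, 6.35, 6.54, 13.8 and 31.3 TPM in the cachectic tibialis anterior. S100a8 was at 0.0819, 0.486, 0.629, 0.701 and 1.25 TPM and at 2.46, 2.80, 3.40, 5.06 and 17.8 TPM. The groups did not overlap for either gene, nor for Cd163 (49.1% of all genes were higher with no overlap). The log2 fold changes were 2.03 (SE 0.424, adjusted p = 0.00368) and 1.87 (SE 0.394, adjusted p = 0.00384).

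Of the macrophage genes in this muscle, Lyz2 was at 15.6, 17.95, 23.1, 24.6 and 32.0 TPM and at 25.7, 44.4, 130, 139 and 195 TPM (log2 fold change 1.88, SE 0.469). Only 1 cachectic sample fell in the non-cachectic range. Cd68 had a log2 fold change of 1.35, Cd163 of 1.14, Csf1r of 1.08 and Mrc1 of 0.99. Adgre1 was at 0.357 to 0.806 TPM in the non-cachectic and 0.699 to 3.49 TPM in the cachectic samples and did not pass the filter on low values; in a table with no filter its log2 fold change was 1.02 (SE 0.232, adjusted p = 0.0125). The cachectic sample with the highest Cd163 (10.7 TPM) was also the highest of the group in the other members except Irf5, where it was the lowest at 1.72 TPM.

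Irf5 went the other way. It was at 17.4 to 24.99 TPM in the non-cachectic and at 1.72, 4.00, 4.61, 5.71 and 7.14 TPM in the cachectic tibialis anterior, with no overlap (2.55% of all genes were lower with no overlap). The log2 fold change was -1.96 (SE 0.244, adjusted p = 0.000242), and -2.36 after median-ratio scaling. The ratio of Irf5 to Csf1r was 7.87 to 14.5 in the non-cachectic and 0.178 to 2.10 in the cachectic samples (exact permutation test, p = 0.00794, the smallest this design allows; adjusted p = 0.0423). In the diaphragm and soleus the ratio was at most 0.849. None of the other interferon regulatory factors was lower, and 5 of 6 tested were higher, led by Irf1 (1.13) and Irf9 (0.98). Over all genes tested in this muscle, 56.4% were higher and 3.78% lower.

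Several values moved with Irf5 in this muscle. Tnpo3, whose 3′ end overlaps that of Irf5 on the opposite strand, was at 9.40 to 10.6 TPM in the non-cachectic and 11.9 to 18.6 TPM in the cachectic samples, the opposite direction, and whether the counting used strand is not given in the sources used here. The summed level of B and plasma cell genes was 43.2 to 199 TPM and 7.26 to 30.4 TPM, and the 1 gene of that list that passed the filter, Ighm, was lower (log2 fold change -3.21). Of 6 muscle fiber genes, 3 were lower, Acta1 (-0.87) and Myh2 (-0.75) among them, and Myh7 was higher (0.89). Their part in the Irf5 result was not tested.

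**Figure D3:**
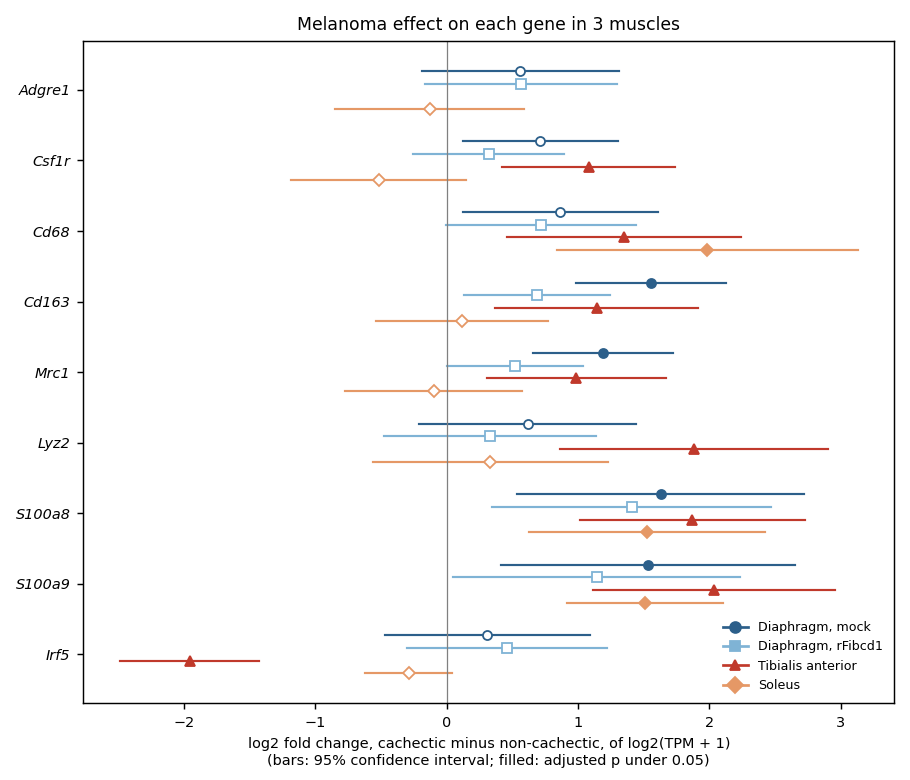
Log2 fold change of each member, cachectic minus non-cachectic, with its 95% confidence interval, in the mock diaphragm, the rFibcd1 diaphragm, the tibialis anterior and the soleus; filled symbols have an adjusted p under 0.05, and Adgre1 was not tested in tibialis anterior. S100a8 and S100a9 are filled in the mock diaphragm and both hindlimb muscles, Cd68 is highest in the soleus (1.99) and Irf5 is below 0 in the tibialis anterior (-1.96).

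In the soleus the cachectic melanoma was accompanied by higher Cd68, S100a8 and S100a9, and the other 6 members were not called. These 3 of 9 stand beside 25.1% of 11957 genes called (17.5% higher), and the members' median log2 fold change was 0.12 beside 0.09 for all genes. Higher genes were 70.0% of all calls and 54.3% after median-ratio scaling, which kept the 3 calls. Here too the library set and the melanoma cannot be told apart.

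Cd68 was at 4.59, 6.06, 6.70, 7.73 and 8.42 TPM in the non-cachectic and 9.54, 12.5, 26.5, 74.7 and 80.8 TPM in the cachectic soleus. The groups did not overlap, and the cachectic samples spread far more than the non-cachectic ones. The log2 fold change was 1.99 (SE 0.523, adjusted p = 0.0176). Csf1r was at 5.71 to 8.60 TPM and at 2.48, 2.81, 3.04, 8.95 and 9.05 TPM, Adgre1 at 1.27 to 2.41 TPM and 0.442 to 3.98 TPM, and neither was called (log2 fold changes of -0.52 and -0.13). The 2 samples with the most Cd68, at 74.7 and 80.8 TPM, held 3.04 and 8.95 TPM of Csf1r and 0.442 and 2.77 TPM of Adgre1.

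The ratio of Cd68 to Csf1r was 0.779 to 1.19 in the non-cachectic and 1.39 to 24.6 in the cachectic soleus (exact permutation test, p = 0.00794, the smallest this design allows; adjusted p = 0.0423). In the other 6 groups it was between 0.416 and 1.67. Of the other ratios to Csf1r in this muscle, those of Lyz2 and S100a9 were higher by 0.99 and 2.50 on the log2 scale, also with no overlap (exact permutation test, adjusted p = 0.0423 for each). Lyz2 itself was not called in the soleus (log2 fold change 0.33, limma adjusted p = 0.588). The denominator of these ratios, Csf1r, had medians of 7.10 TPM in the non-cachectic and 3.04 TPM in the cachectic soleus. Among the other macrophage genes, 2 of 15 were higher in this muscle, the lysosomal glycoprotein gene Gpnmb (1.82) and the lipopolysaccharide receptor gene Cd14 (1.16). Of 9 resident macrophage genes, 2 were higher (Cbr2, 2.01, and Gas6, 0.62) and 2 lower (Folr2, -0.97, and Mgl2, -0.80). Eif4a1, the gene upstream of Cd68 on the same strand, was at 68.4 to 90.8 TPM in the non-cachectic and 99.4 to 157 TPM in the cachectic soleus, and its part in the Cd68 values was not tested.

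**Figure D4:**
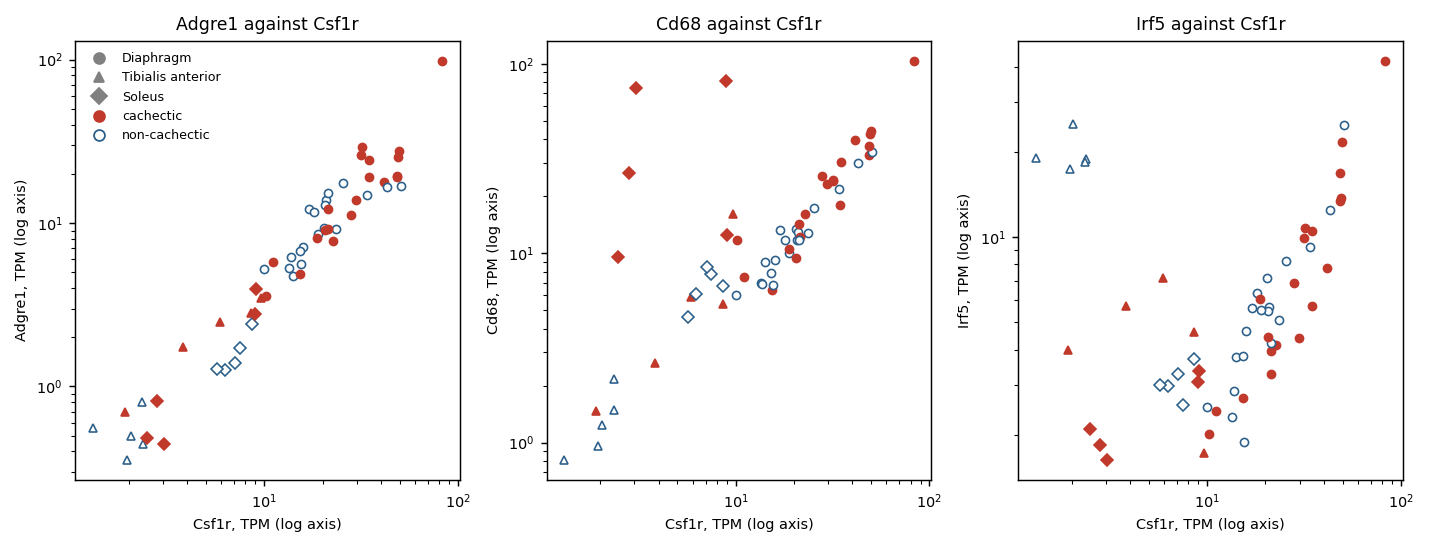
Adgre1, Cd68 and Irf5 against Csf1r in the 59 libraries, in TPM on log axes; circles, diaphragm; triangles, tibialis anterior; diamonds, soleus; filled red, cachectic; open blue, non-cachectic. Adgre1 follows Csf1r in all 3 muscles, 4 of 5 cachectic soleus samples (9.54, 26.5, 74.7 and 80.8 TPM) lie above the rest in Cd68 for their Csf1r, and the 5 non-cachectic tibialis anterior samples lie far above the rest in Irf5 for their Csf1r.

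The neutrophil pair was higher in the soleus as well. S100a9 was at 1.95, 2.16, 2.25, 2.37 and 3.15 TPM and at 4.40, 5.18, 10.4, 12.8 and 14.2 TPM, with no overlap (14.6% of all genes were higher with no overlap), and the log2 fold change was 1.51 (SE 0.272, adjusted p = 0.0029). S100a8 was at 0.402 to 2.19 TPM and 1.95 to 15.7 TPM and overlapped (log2 fold change 1.52, SE 0.411, adjusted p = 0.0197); it was not called without 1 non-cachectic sample (adjusted p = 0.0512), nor by Dunn's test (adjusted p = 0.0641). None of the other 20 neutrophil genes passed the filter on low values in either hindlimb muscle. Their summed level was 1.40 to 1.76 TPM and 4.55 to 20.3 TPM in the tibialis anterior, and 3.46 to 4.43 TPM and 4.34 to 22.9 TPM in the soleus. Mpo was listed at 0 in all cachectic samples of both.

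Other cell types in the hindlimb muscles were measured alongside. Their counts are to be read beside 56.4% of all genes higher and 3.78% lower in tibialis anterior. In soleus 25.1% of all genes were called, 17.5% higher. The endothelial list was higher in 5 of 7 genes and lower in 1 in tibialis anterior, and 3 and 1 in soleus, with sums of 131 to 163 and 233 to 457 TPM in the first and 244 to 277 and 315 to 457 TPM in the second. The fibro-adipogenic list was higher in 4 of 7 in tibialis anterior and lower in 3 of 7 in soleus, where Col1a1 was at -2.33. The fast myosin gene Myh4, low in soleus fibers, was at 7.34 to 24.9 TPM in the non-cachectic and 31.2 to 4989 TPM in the cachectic soleus. No T cell, natural killer cell or mesothelial gene passed the filter in either muscle, and no red blood cell, adipocyte, dendritic cell or liver gene was called. Hp and Ccl8 were higher in both, with log2 fold changes of 3.19 and 2.90 in tibialis anterior and 4.39 and 2.02 in soleus. The part of other cells in the members' levels was not tested.

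The differences between muscles were tested in 39 samples without rFibcd1. The library set coincides with the melanoma in both hindlimb muscles, and only in part in the mock diaphragm. A difference in the melanoma effect therefore cannot be told apart from a difference in the effect of the library set. Diaphragm and tibialis anterior differed in the melanoma effect on Irf5 alone (log2 difference 2.27, SE 0.370, adjusted p = 0.000216; 5.04% of all genes called, 0.711% higher). Tibialis anterior and soleus differed on Csf1r (1.60, SE 0.431, adjusted p = 0.0107) and Irf5 (-1.67, SE 0.424, adjusted p = 0.00721), with 20.4% of all genes called (19.1% higher and 1.26% lower). Diaphragm and soleus differed on no member (2.52% of all genes), where Mrc1 was at 1.29 (adjusted p = 0.0548), Csf1r at 1.23 (adjusted p = 0.0705) and Cd163 at 1.44 (adjusted p = 0.079). At an unadjusted p under 0.05 there were 3 members in that comparison, beside 2134 of 13501 genes. These 3 were called without 1 cachectic soleus sample (adjusted p = 0.0115 to 0.0314) or without 1 cachectic mock diaphragm (adjusted p = 0.0174 to 0.0374). The count between tibialis anterior and soleus was 2 to 5 when single libraries were left out. Of the numbers that the columns carry, 10 recur in all 3 muscles, and whether they mark mice is not given in the sources used here. With the column number as a random effect (consensus correlation 0.381), Mrc1, Cd163 and Csf1r were called between diaphragm and soleus (adjusted p = 0.0101, 0.0164 and 0.0235), and 6 members in place of 2 between tibialis anterior and soleus, while the calls over all genes went to 7.36% and 41.2%. For non-cachectic levels that fit called 9 members between diaphragm and tibialis anterior and 6 between diaphragm and soleus (76.9% and 49.9% of all genes). The calls added were S100a8 in the first and S100a9 in the other pair (limma adjusted p = 0.0324 and 0.0361). The effect on Cd68 was not shown to differ between soleus and diaphragm (diaphragm minus soleus -1.12, 95% confidence interval from -2.26 to 0.03), and no difference was shown for S100a8 or S100a9 in any pair of muscles. Median-ratio scaling changed the share of higher genes among all calls from 14.1% to 60.9%, from 93.8% to 32.8% and from 77.4% to 34.4% in these 3 comparisons, in the order given. It kept the 3 member calls and added Mrc1 between diaphragm and soleus (1.14, adjusted p = 0.0437).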

How the data were processed

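RNA was extracted from 59 muscle samples of melanoma-bearing mice and sequenced by the authors. The deposited values are TPM per gene symbol, made by the authors with CLC Genomics Workbench 12.0.1 on mouse genome build GRCm38 (mm10), and the annotation is not given in the sources used here. The sources differ on the library kit and instrument. All 59 columns sum to 1000000 TPM, so depth is unknown, and no counting interval can be given. Columns name a group and carry a number that is not the labelled replicate number, and 10 of these numbers recur in all 3 muscles. The labels call the samples biological replicates.

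Values were analysed as log2(TPM + 1), and a gene entered a fit if it reached 1 TPM in at least as many samples as the smallest group held. Genes were tested with limma 3.58.1 (R 4.3.3, mean-variance trend) and Benjamini-Hochberg adjustment over all genes tested. The diaphragm groups, each hindlimb muscle and, for differences between muscles, the 6 groups without rFibcd1 were fitted separately. Ratios to Csf1r and the fit with the column number as a random effect were chosen after seeing the data. The members and lists were chosen with earlier results of these data known. Of each list, at most 2 called genes per direction with a mean of at least 1 TPM were named. Scripts were tested on simulated data. Alternatives were a pseudocount of 0.1, no filter or a mean TPM of 5, median-ratio scaling, Dunn's rank test, a separate fit for each pair of groups, the library set and leaving out each library. Itgam was not analysed here, and results for some other genes are not reported here.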

Additional observations from a re-analysis of the deposited data

Results flagged for a closer look

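In 3 of 72 pairs of gene and group, 1 library lay apart from the rest by Dixon's test at 95%, which chance gives in about 1 of 20 groups. Cd163 reached 10.7 TPM in 1 cachectic tibialis anterior, beside 1.32 to 2.59 TPM in the other 4. Mrc1 was at 8.69 TPM in 1 cachectic mock diaphragm, beside 18.4 to 38.6 TPM in the other 9. Irf5 was at 24.99 TPM in 1 non-cachectic tibialis anterior, beside 17.4 to 18.9 TPM in the other 4.

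The effect of the melanoma differed between muscles for 2 members, by a test of the difference itself in limma. The library set coincides with the melanoma in both hindlimb muscles, so its part in these differences cannot be told apart. For Irf5 it was 2.27 higher on the log2 scale in diaphragm than in tibialis anterior and -1.67 in tibialis anterior relative to soleus. For Csf1r it was 1.60 higher in tibialis anterior than in soleus. All 3 differences remained called after median-ratio scaling.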

How the results depend on the processing

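The number of members called moved by over 1.5 times as follows. With the library set as a term, and in high-Pcna-ps2 libraries alone, 2 members were called in the mock diaphragm (15.3% and 5.69% of all genes). A minimum mean of 5 TPM left 3 members tested and 3 called in tibialis anterior. The melanoma effect differed between tibialis anterior and soleus for 5 members with a pseudocount of 0.1 and 6 with the column number as a random effect (25.2% and 41.2% of all genes), and between diaphragm and soleus for 1 with median-ratio scaling and 3 with the random effect. Non-cachectic levels differed between tibialis anterior and soleus for 3 members with median-ratio scaling and 1 by Dunn tests, and between diaphragm and soleus for 0 by Dunn tests. Leaving out single libraries gave 0 to 1 member under rFibcd1, 0 to 3 for diaphragm against soleus and 2 to 5 for tibialis anterior against soleus.

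These log2 values changed sign. With a pseudocount of 0.1 they were -0.026 (Adgre1, interaction), -0.054 (Cd163, diaphragm against tibialis anterior), and -0.022 and -0.088 (S100a8 and S100a9, diaphragm against soleus). With the library set as a term they were -0.0068 (Adgre1) and -0.30 (Irf5) in the mock diaphragm, and in the interaction 0.20 (Cd68), 0.060 (Lyz2), 0.13 (S100a8) and 0.034 (S100a9). The Irf5 interaction was -0.14 in high-Pcna-ps2 libraries. With median-ratio scaling the values were -0.0051 and -0.11 (S100a8 and S100a9, diaphragm against soleus) and 0.027 (S100a9, level in tibialis anterior against soleus), and the correlation of hemoglobin genes with S100a8 and S100a9 in cachectic rFibcd1 diaphragms was -0.114. None of these was called.

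Leaving out single libraries turned the sign for rFibcd1 in cachectic mice of Cd68 (-0.0039 to 0.40) and Csf1r (-0.11 to 0.21); for the interaction of Adgre1 (-0.27 to 0.23), Cd68 (-0.38 to 0.022), S100a8 (-0.54 to 0.12) and Irf5 (-0.085 to 0.35); and in soleus of Adgre1 (-0.40 to 0.047), Cd163 (-0.13 to 0.32), Mrc1 (-0.37 to 0.059) and Lyz2 (-0.10 to 0.54). Between muscles it did so for Mrc1 (-0.059 to 0.48) and S100a8 (-0.43 to 0.18) in diaphragm against tibialis anterior, S100a8 (-0.17 to 0.45) and S100a9 (-0.18 to 0.20) in diaphragm against soleus, and S100a8 (-0.076 to 0.70) in tibialis anterior against soleus. The cause was not tested. No paired analysis was possible by the labelled replicate numbers because the columns do not carry them, and the only blocked fit was the random effect of the columns' own numbers given above. With unknown depth, the precision of low values such as 0.0819 TPM of S100a8 cannot be given.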
